A study of Mus musculus with 4 samples.

Results

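The skeletal muscle spots were 300 spots chosen by their measured expression, as those with the highest mean level of 5 genes of striated muscle, Mylpf, Tnnt3, Acta1, Myl1 and Myh8, among 5901 usable spots in spatial RNA-seq (spRNA-seq) of coronal sections through the mid-palatal head of wild-type C57BL/6J mouse embryos. The groups were E14.5 and E15.5, which share the genotype and carry no treatment. Each stage had 2 capture areas, and each capture area is 1 library: replicate 1 with a single section, and replicates 2-4 with 3 sections together. A usable spot lay over tissue and held at least 2000 unique molecular identifiers (UMIs, the count of captured RNA molecules), and each spot pools the RNA of the cells, often of more than 1 type, that lie over it. The score of a spot was the mean over the 5 genes of log2(1 + UMIs per 10000). The 300 spots made up 5.08% of the usable spots, and since those 5 genes chose them, every level of muscle genes against the remaining spots is a description and was not tested.

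Skeletal muscle fibers form by fusion of myoblasts. The transcription factors Pax7, Myf5 and Myog mark successive steps from progenitor to differentiating myoblast, and the fiber then fills with sarcomeres, in which myosin thick filaments slide along actin thin filaments anchored at the Z disc. Nerve signals reach the fiber at the neuromuscular junction through the acetylcholine receptor, and calcium released from the sarcoplasmic reticulum triggers contraction. Fetal fibers carry embryonic and perinatal myosins (Myh3, Myh8) ahead of the adult ones. Muscles of the head have more than one origin: those of the jaw and face come from cranial mesoderm and use Tbx1, Msc and Tcf21, whereas those of the tongue come from occipital somites, whose migrating progenitors use Pax3 and Lbx1.

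The promoters of the genes that separated muscle spots most from the rest are shown first, as the 250 bases before the annotated start of 5 of the 6 leading genes. These genes were Nkx2-5, Ckm, Lbx1, Casq1, Padi2 and Nrap, and Lbx1 is named only. The sequences are those of RefSeq on GRCm38.p6, 5′ to 3′ along the strand of the gene, and capitals mark each CANNTG, the E-box letters that factors of the Myog family can bind. Nkx2-5 (chr17:26841566-26841815, minus strand), Ckm (chr7:19410844-19411093, plus strand), Casq1 (chr1:172219896-172220145, minus strand), Nrap (chr19:56390039-56390288, minus strand) and Padi2 (chr4:140906110-140906359, plus strand) read as follows.
Nkx2-5: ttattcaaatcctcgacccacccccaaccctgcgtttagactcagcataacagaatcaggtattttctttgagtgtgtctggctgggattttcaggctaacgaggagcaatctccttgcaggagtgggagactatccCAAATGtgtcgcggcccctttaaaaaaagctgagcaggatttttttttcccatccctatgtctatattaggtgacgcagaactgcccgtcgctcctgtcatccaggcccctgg
Ckm: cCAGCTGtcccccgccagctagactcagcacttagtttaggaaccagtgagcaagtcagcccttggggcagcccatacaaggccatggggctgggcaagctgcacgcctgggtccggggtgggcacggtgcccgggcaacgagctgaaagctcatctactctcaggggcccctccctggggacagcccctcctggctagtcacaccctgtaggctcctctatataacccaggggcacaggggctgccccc
Casq1: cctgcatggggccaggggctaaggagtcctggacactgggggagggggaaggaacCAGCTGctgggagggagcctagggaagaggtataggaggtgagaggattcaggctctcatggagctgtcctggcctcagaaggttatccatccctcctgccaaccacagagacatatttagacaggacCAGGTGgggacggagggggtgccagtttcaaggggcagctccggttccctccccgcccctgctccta
Nrap: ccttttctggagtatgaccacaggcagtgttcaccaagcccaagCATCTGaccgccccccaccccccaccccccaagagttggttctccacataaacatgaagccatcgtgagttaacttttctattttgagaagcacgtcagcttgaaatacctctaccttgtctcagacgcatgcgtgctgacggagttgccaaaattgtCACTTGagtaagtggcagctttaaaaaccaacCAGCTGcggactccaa
Padi2: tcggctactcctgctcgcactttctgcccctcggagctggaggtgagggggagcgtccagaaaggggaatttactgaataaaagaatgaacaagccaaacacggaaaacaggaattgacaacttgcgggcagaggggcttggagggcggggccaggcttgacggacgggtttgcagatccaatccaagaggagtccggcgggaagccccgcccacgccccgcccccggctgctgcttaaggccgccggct

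The letters CANNTG occurred once in the Nkx2-5 and Ckm windows, in 2 places in that of Casq1, in 3 in that of Nrap and nowhere in that of Padi2. CAGCTG, a form of CANNTG that reads the same on both strands, stood in the windows of Ckm, Casq1 and Nrap. Over the 20 genes named against the other spots, 17 had a promoter in the table. Of these, 16 (94.1%) held CANNTG, against 69.3% of all 27025 genes with a promoter. CAGCTG stood in 5 (29.4%, against 14.7%), the MEF2 motif in 2 (11.8%, against 3.42%) and the CArG motif in 0 (against 1.62%), with both strands searched. A match is a description of letters in this window only. The 20 genes are the extreme of the ranking and include the score genes Tnnt3, Myh8 and Mylpf. The shares rest on few promoters, were not tested and do not describe muscle genes at large.

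The 4 libraries held 15438992, 109127953, 67344393 and 89128289 UMIs. E14.5 replicate 1 stood apart as the shallowest, and its muscle spots held 145875 UMIs in all, against 6690154 to 8355988 in the other areas. The median muscle spot there held 4517 UMIs and the median other spot 11333, whereas in the other 3 areas muscle spots were deeper than the rest (medians of 65772 to 98083 against 43778 to 62458). Of the array barcodes, 192 occurred over tissue in all 4 areas, and 0 barcodes were muscle spots in more than 1 area. The labels do not say which embryo each section came from, so the spread between areas may be technical in part.

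The label was checked on genes outside the score. From here on, 4 values in a row are those of E14.5 replicate 1, E14.5 replicates 2-4, E15.5 replicate 1 and E15.5 replicates 2-4, and levels are CPM (counts scaled to the same UMI total, as counts per 1000000) of the spots of an area summed together. Ckm, the muscle creatine kinase, stood at 946, 612, 1014 and 924 CPM in muscle spots and at 38.7, 37.8, 54.8 and 82.0 in the other usable spots. Myog, which drives myoblast differentiation, stood at 713, 675, 720.3 and 576 CPM against 70.4, 85.5, 115 and 133. Chrna1, a subunit of the muscle acetylcholine receptor, stood at 295, 345, 261 and 239 CPM against 18.2, 35.7, 34.0 and 44.2, and Ryr1, the calcium release channel, at 432, 259, 328 and 262 against 30.9, 37.9, 51.8 and 56.9. In every area each of these genes was higher in the muscle spots, and the label held. A second choice of 300 spots on Ckm, Actn2, Tnnc2, Tnni2 and Myh3 shared 260 spots with the members (86.7%).

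Heart and smooth muscle use some of the same genes, so their markers were read beside. Among cardiac genes, Myl7, an atrial light chain, stood at 0 to 1.44 CPM in muscle spots. Tnni3, the cardiac troponin I, stood at 3.74, 3.41 and 2.63 CPM in 3 areas, below the 5.46, 4.37 and 4.00 of their other spots, but at 75.4 (11 UMIs) in E14.5 replicate 1, where the other spots held 29.8. Nppa, an atrial peptide, stood at 34.3 CPM (5 UMIs) in that area and at 0.150 to 0.775 in the rest. Ryr2, the calcium release channel of the heart, stood at 2.39, 3.41 and 1.79 CPM in 3 areas, below the 4.61, 4.47 and 5.37 of their other spots, and at 13.7 (2 UMIs) in E14.5 replicate 1. Myh6, the alpha cardiac myosin, stood higher in muscle spots in every area, at 75.4, 68.8, 54.6 and 45.4 CPM against 4.53 to 5.88. Of the 10 cardiomyocyte markers 5 were abundant enough to compare, and 5 were 4-fold higher in every area. The summed level of the list was 5203, 7481, 5684 and 5391 CPM, of which Myl4, a light chain that fetal skeletal muscle also uses, made up 4744, 7218, 5421 and 5122. Of the 6 smooth muscle markers the summed level was 761 to 859 CPM against 161 to 322 in other spots. The part of these cells in the results was not tested.

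**Figure D1:**
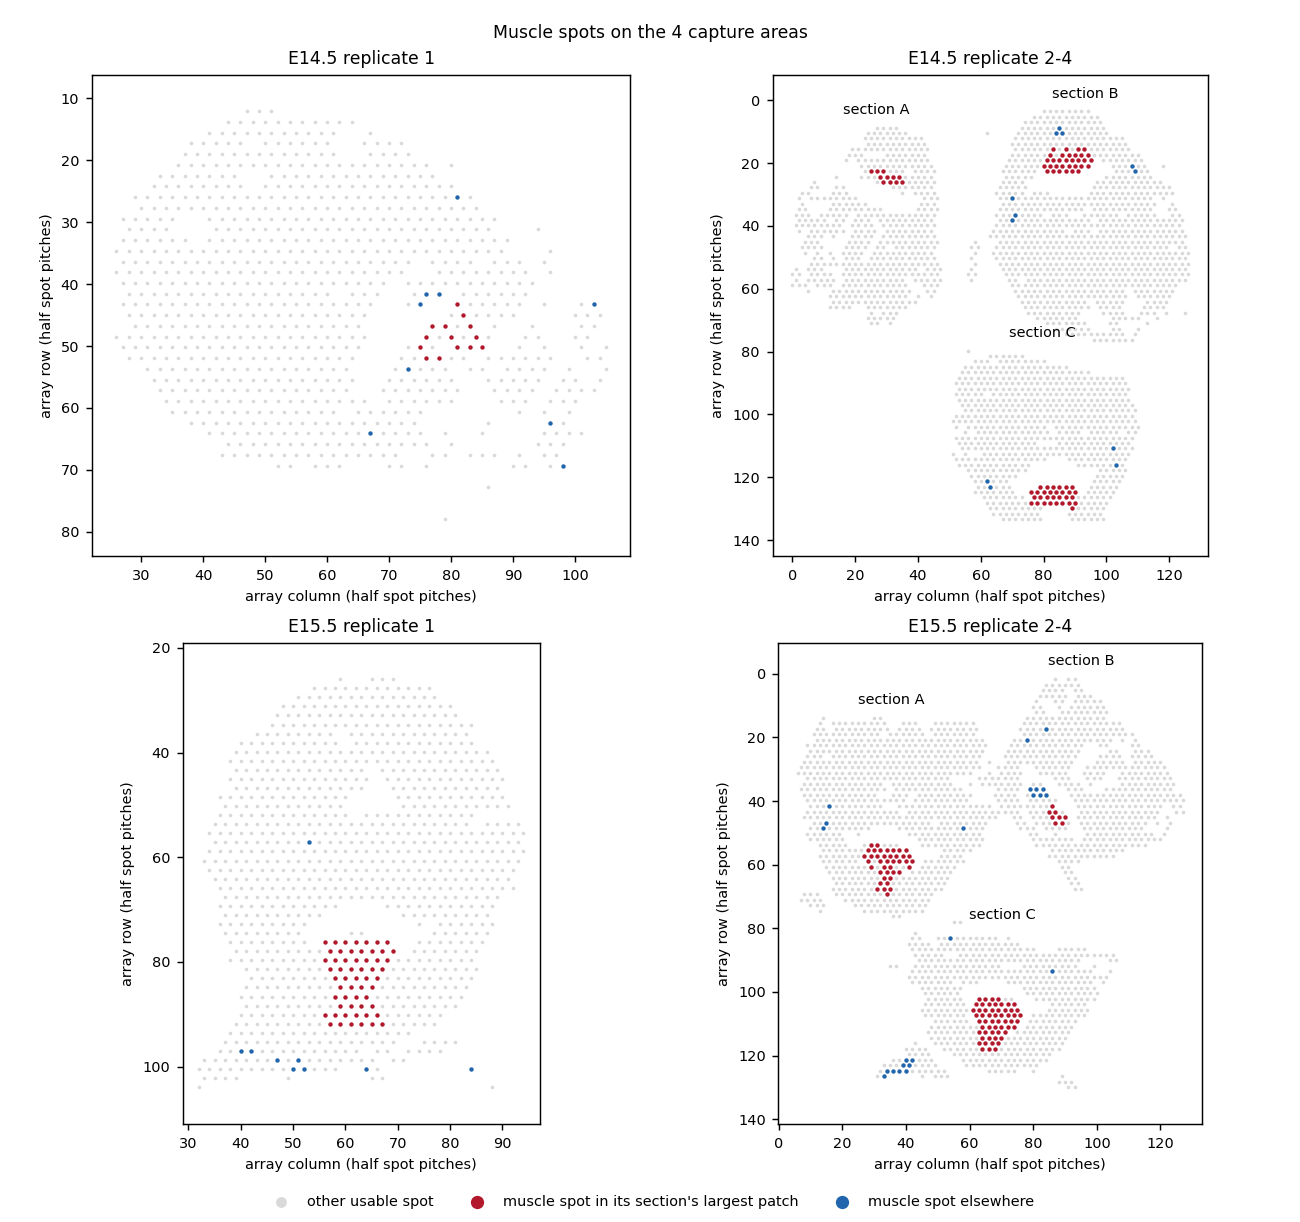
Positions of the muscle spots on the 4 capture areas, in array columns and rows. Red points are the 247 muscle spots in the largest patch of their section, blue points the 53 elsewhere, and grey points the other usable spots, and most muscle spots sit in 1 block per section.

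Muscle spots held a like share of sarcomere RNA in all libraries. The 59 contractile genes took a median of 5.04%, 5.53%, 5.60% and 4.98% of a muscle spot's UMIs, against 0.312%, 0.298%, 0.251% and 0.509% of another spot's. They include the 5 score genes, which alone made up 1.90%, 1.99%, 2.08% and 1.92% of the UMIs of the muscle spots. The range over single muscle spots was 3.37% to 10.4%. The rule sets a lower end to these values, and as it used the same cutoff in all areas, it also sets part of their likeness between libraries. The last spot taken had a score of 4.578, the first left out 4.577, and the highest score was 5.876, so the edge of the set cuts through a continuous range of spots.

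Muscle spots took a larger share of the E15.5 sections than of the E14.5 sections, but 2 areas against 2 cannot separate the stages. They were 23 of 859 usable spots (2.68%, exact binomial 95% interval 1.70 to 3.99) and 85 of 2104 (4.04%, 3.24 to 4.97) at E14.5. At E15.5 they were 65 of 988 (6.58%, 5.11 to 8.31) and 127 of 1950 (6.51%, 5.46 to 7.70). The E15.5 areas had the higher shares, and the mean share differed by 3.19 percentage points (exact permutation test over the areas, two-sided, p = 0.333, the smallest p that 2 against 2 can give). Among the 3 sections that share a library the share was lowest at 2.17% and highest at 5.06% for E14.5, and lowest at 2.78% and highest at 11.03% for E15.5, so the E15.5 sections alone spanned more than the difference between the stages. Fewer muscle cells in a spot and less muscle RNA per cell cannot be told apart in such spots.

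Against all other spots, 126 of 11086 genes with at least 100 UMIs in muscle spots (1.14%) were at least 4-fold higher in every area, and 69 (0.622%) at least 4-fold lower. Over all these genes the median log2 ratio was -0.14, 18.3% were higher in every area and 36.4% lower. The genes were read in the lists given below, by their role in the fiber.

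Thick filament genes were the first group. Of the 19 that could be compared, 17 were higher in every area and 13 at least 4-fold, with a median log2 ratio of 3.04. This list holds 3 score genes, which are high by the rule. Myh3, the embryonic myosin heavy chain, stood at 5368, 8211, 6052 and 6179 CPM against 339, 890, 738 and 1085 in other spots. Myh8, the perinatal heavy chain and a score gene, stood at 2159, 2836, 3440 and 3003 CPM. The slow heavy chain Myh7 stood at 603, 406, 379 and 293 CPM against 108, 91.5, 89.9 and 99.5. Of the adult fast heavy chains, Myh1 stood at 0, 19.4, 9.92 and 10.3 CPM against 4.19 to 10.1 in other spots, and Myh4 at 6.86, 3.59, 3.72 and 1.92. The heavy chain genes are close copies of each other, and how the probes tell them apart is not given in the sources used here, so their single values are uncertain. All 5 embryonic and fetal isoforms and 7 of 8 fast isoforms that could be compared were 4-fold higher in every area, with median log2 ratios of 3.18 and 3.24. For slow isoforms it was 6 of 9 (2.70). The fast list holds 2 score genes, the embryonic and fetal list 1 and the slow list 0. The rule thus raised part of the fast and the fetal lists, and the lists were not compared by a test.

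Thin filament and Z disc genes were higher alongside. Of 17 thin filament genes, 17 were higher in every area and 14 at least 4-fold (median 2.95), and of 18 Z disc genes 17 and 13 (2.93). The thin filament list holds 2 score genes, which are high by the rule, and the Z disc list 0. Tnnc2, the fast troponin C, stood at 4668, 3432, 3446 and 2961 CPM against 176 to 407. Lmod2, a factor that elongates thin filaments, stood at 212, 140, 133 and 123 CPM against 8.39 to 14.9. Actn2, which crosslinks actin at the Z disc, stood at 1008, 1338, 1206 and 1008 CPM against 77.1 to 185. Nrap, an actin-binding protein of growing myofibrils, stood at 151, 216, 214 and 169.6 CPM against 7.66 to 18.6. For each of these genes the lowest area in muscle spots lay above the highest area in other spots.

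Calcium handling and the junction with the nerve were represented by many genes. Of 21 genes of excitation-contraction coupling, 20 were higher in every area and 11 at least 4-fold (median log2 ratio 2.62). Casq1, the calcium store protein of fast fibers, stood at 226, 284, 402 and 284 CPM against 12.5, 19.6, 26.2 and 29.1, and Casq2, which slow fibers and heart also use, at 706, 345, 541 and 584 against 44.4, 29.3, 51.8 and 82.1. Pvalb, the calcium buffer of adult fast fibers, stood at 0 to 2.02 CPM. Of 11 junction genes, 10 were higher in every area and 6 at least 4-fold (2.71). Chrng, the fetal receptor subunit, stood at 329, 499.8, 396 and 319 CPM against 24.8 to 57.7. Agrn, which nerve and many other cells release, was the exception in that list, at 130.2, 49.8, 88.5 and 73.8 CPM against 107, 85.6, 133 and 113, and its order differed between areas.

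Most energy genes were higher in muscle spots, by unequal amounts. Of 16, 14 were higher in every area and 9 at least 4-fold (median log2 ratio 2.74). Ckm was 11.2-fold to 23.8-fold higher. Cox8b, a subunit of cytochrome oxidase found in striated muscle, stood at 137, 132, 179 and 138 CPM against 10.4 to 18.5. Slc25a4, the mitochondrial ADP/ATP carrier, stood at 1632, 1146, 1537 and 1184 CPM against 1243, 1037, 1208 and 1031, a log2 ratio of 0.14 to 0.39. Mb, the oxygen store myoglobin, stood at 6.86, 1.05, 1.86 and 1.80 CPM, near the 0.597 to 5.26 of other spots.

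The regulators of myogenesis stood apart less than the fiber proteins did. Of 15, 11 were higher and 2 lower in every area, and 3 were at least 4-fold higher (median log2 ratio 0.69). Myf6, which acts late in the pathway, stood at 82.3, 66.1, 103 and 79.8 CPM against 7.86 to 12.8. Pax7, the progenitor marker, stood at 20.6, 23.0, 41.4 and 33.5 CPM against 2.53 to 8.11. Pax3 was lower in muscle spots in every area, at 6.86, 11.7, 5.11 and 12.5 CPM against 7.59, 15.1, 10.99 and 24.2. Of 8 fusion and adhesion genes 7 were higher in every area and 0 at least 4-fold (1.62). The fusogen Mymk stood at 82.3, 32.9, 67.9 and 48.6 CPM against 4.31 to 11.8.

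Genes that pattern head muscle were mixed. Of 10, 6 were higher and 2 lower in every area (median log2 ratio 1.15). Lbx1, the gene of migrating somite progenitors, was the one that was 4-fold higher in every area, at 48.0, 106, 86.3 and 58.9 CPM against 2.33 to 5.47. Tbx1 stood at 96.0, 221, 186.5 and 184 CPM against 20.2 to 52.2, and Msc, a repressor at work in jaw muscle progenitors, at 164.5, 167, 224 and 157 against 33.3 to 53.1. Tcf21 stood at 5.51 to 10.0 CPM. Lhx2 and Isl1 were lower in muscle spots, Lhx2 at 6.86, 13.9, 10.7 and 14.4 CPM, with at least 91.0 in the other spots.

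Nkx2-5 had the highest lower bound of all genes. This homeobox factor is best known from the heart. It stood at 103, 145, 134 and 126 CPM in muscle spots against 3.39, 5.37, 5.12 and 8.46 in other spots, a log2 ratio of 3.75 to 4.56. The E14.5 replicate 1 value rests on 15 UMIs, and those of the other areas on 866 to 1055. Other genes among the leading 20 that are no sarcomere protein were Padi2, an enzyme that converts arginine to citrulline, at 158, 195, 128 and 213.5 CPM against 5.66 to 22.3, and Ripply1, a repressor known from somites, at 54.8, 45.3, 50.7 and 39.0 against 1.93 to 4.06. Arhgap36, an inhibitor of protein kinase A, stood at 281, 213, 412 and 350.5 CPM against 17.5 to 44.2.

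Imprinted growth genes were higher and cell cycle genes lay near the level of other spots. All 6 imprinted growth genes that could be compared were higher in every area (median log2 ratio 1.49) and 0 were 4-fold. Dlk1, a membrane protein of fetal tissue, stood at 6547, 7938, 6462 and 5744 CPM against 1166, 1764, 1677 and 2057, and Cdkn1c, an inhibitor of the cell cycle, at 4854, 7853, 8047 and 6802 against 1117 to 2797. Mki67, a proliferation marker, stood at 206, 337, 317 and 326 CPM against 314, 358, 349 and 334. Of 7 cell cycle genes 2 were higher and 2 lower in every area (-0.11).

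The genes lowest in muscle spots were those of brain and pigment. Zic1, a factor of the neural tube, stood at 0, 6.13, 17.5 and 11.1 CPM against 415, 447, 251 and 179.8, and Gad2, which makes the transmitter GABA, at 6.86 to 12.1 against 94.9 to 291. Pmel and Dct, of melanocytes and the pigmented retina, stood at 6.51 to 16.0 and 0 to 10.9 CPM against 81.3 to 132 and 76.1 to 85.1. All 7 cartilage markers were lower in every area (median log2 ratio -2.08), with Col2a1 at 720, 467, 354 and 696 CPM against 1547, 2506, 2031 and 3366. Keratinocyte and oral epithelium markers were split, with 2 of 7 higher and 2 lower in every area (-0.02).

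**Figure D2:**
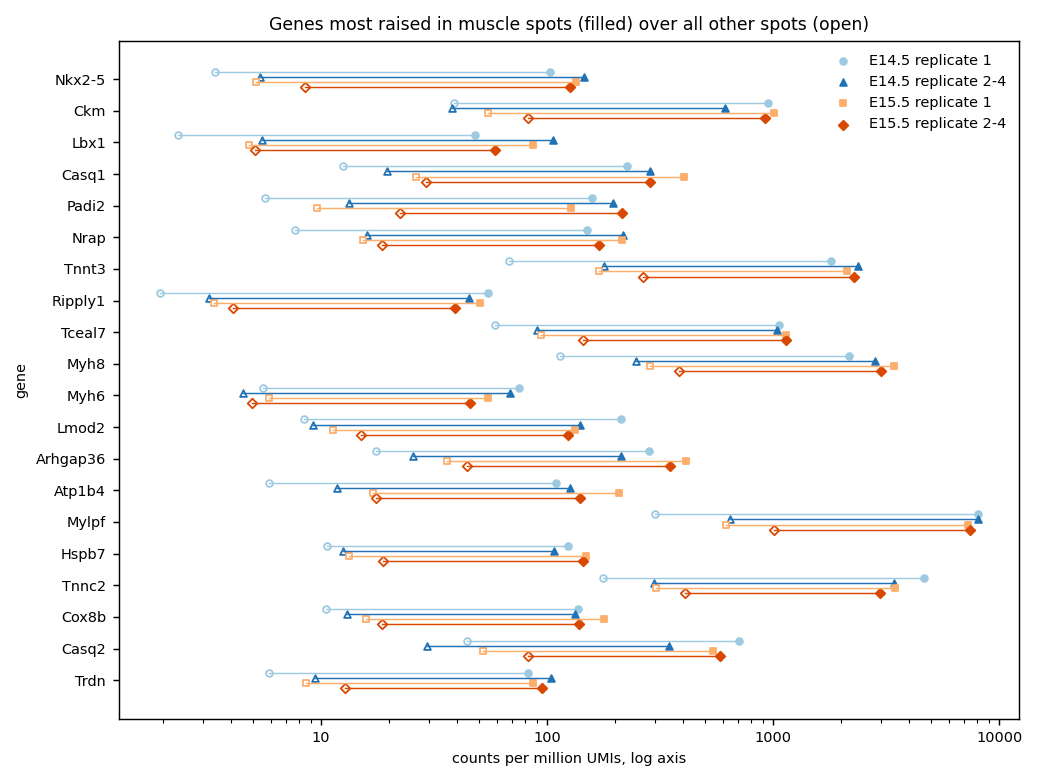
Levels of the 20 genes most raised in muscle spots, in CPM on a log axis. Filled symbols are muscle spots and open symbols all other usable spots of the same capture area, joined by a line, and Nkx2-5 and Ckm lead, with Nkx2-5 at 103 to 145 CPM against 3.39 to 8.46.

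Most muscle spots lay side by side. Members that touched on the array formed 10 patches of at least 5 spots, and 247 of the 300 (82.3%) belonged to the largest patch of their section. These had 14 spots in E14.5 replicate 1, 32, 30 and 11 in the E14.5 replicates 2-4 sections, 56 in E15.5 replicate 1 and 56, 40 and 8 in the E15.5 replicates 2-4 sections. Of the 1639 neighbors that muscle spots had, 69.8% were muscle spots, and 27.4% in E14.5 replicate 1. A further 38 spots stood in 27 groups of 1 to 4, 9 lay on a detached piece of tissue in E15.5 replicates 2-4 and 6 formed a smaller patch in its section B.

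The largest patches lay near the midline and away from the forebrain. On an axis from the forebrain end of the section at 0 to the opposite end at 1, found from forebrain marker genes, their median position was 0.682 to 0.786 in 7 of 8 sections. In the remaining one, section C of E15.5 replicates 2-4, forebrain markers were at 3.64 CPM, so that its axis and its value of 0.498 are uncertain. Their median distance from the midline, as a share of the distance from midline to edge, was 0.0966 to 0.312, against 0.414 to 0.484 for all spots of a section. The muscle spots elsewhere lay at 0.145 to 0.702. In section B of E15.5 replicates 2-4 they lay nearer the midline than the largest patch, at 0.145 against 0.214. The position comparison below sorts spots by patch and not by this distance.

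Muscle gene levels varied between patches. Over the 10 patches Myog stood at 456 to 746 CPM and Myh3 at 4680 to 9309. The patch of 9 spots on the detached piece held 923 CPM of Myh7 against 208 to 449 in the other patches, 0 UMIs of Nkx2-5 in 418164, against 74.3 to 235 CPM elsewhere, and 64.6 CPM of Tbx1. A count of 0 there allows up to 8.82 CPM (exact Poisson 95% interval, counting error only), and Myh3 and Ckm stood at 4831 and 1277 CPM in that patch. Ckm ran from 430 to 1322 CPM over all patches and was lowest in section A of E14.5 replicates 2-4.

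To compare blocks by position, muscle spots in the largest patches (247) and elsewhere (53) were summed in each area and tested with edgeR's quasi-likelihood test with the capture area as a block, with Benjamini-Hochberg adjustment over 9867 genes and a threshold of 0.1. This comparison was chosen after the positions had been seen. At that threshold 297 genes (3.01%) were higher in the largest patches and 341 (3.46%) lower, around a median log2 difference of -0.01. DESeq2 called 220 in all. The spots elsewhere were 9, 12, 9 and 23 and held 78560, 833130, 456549 and 1187569 UMIs, so the E14.5 replicate 1 values are the least certain. The median score of the largest patches was 5.14, 5.23 and 5.18 in the 3 deeper areas against 4.66, 4.76 and 4.79 elsewhere, and 4.81 against 5.01 in E14.5 replicate 1. Of the 5 score genes, which chose the spots, 3 were called higher in the largest patches. The part of the score in the other differences was not tested.

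Hand2 was higher in the largest patches in every area, and Nkx2-5 in 3 of 4. Hand2, a factor of ventral pharyngeal tissue, stood at 134, 265, 144 and 209 CPM in the largest patches and at 76.4, 107, 43.8 and 104 elsewhere, with a log2 difference of 1.26 (SE 0.125, adjusted p 3.46e-07 by edgeR's quasi-likelihood test). Nkx2-5 stood at 163, 144 and 137 CPM in 3 areas against 22.8, 6.57 and 59.8, but at 74.3 against 127 in E14.5 replicate 1. Its log2 difference was 1.95 (adjusted p 1.78e-05 by edgeR's quasi-likelihood test) and 2.11 without that area, and DESeq2 did not call it (adjusted p 0.448).

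Tbx1 and Lbx1, of different muscle lineages, were both higher in the largest patches. Tbx1 stood at 59.4, 244, 193 and 195 CPM against 127, 62.4, 98.6 and 117 (log2 difference 1.13, adjusted p 0.000117 by edgeR's quasi-likelihood test). Lbx1 stood at 44.6, 116, 88.2 and 63.2 CPM against 50.9, 39.6, 61.3 and 32.8 (1.04, adjusted p 0.000431). For both genes the order in E14.5 replicate 1 was the opposite, and without it the log2 differences were 1.22 and 1.09. DESeq2 did not call Tbx1 (adjusted p 0.106). Met, the receptor that migrating progenitors need, was also called (1.05), and Msc was called lower (-0.36), though it was lower in the largest patches in 2 areas and higher in 2. Of the 8 head muscle patterning genes tested 3 were called higher and 2 lower, Msc and Lhx2. Over all genes tested 3.01% were called higher and 3.46% lower. The values of Lhx2 are given under the other observations. Myog (-0.07), Pax7 (-0.32) and Myh3 (0.26) were not called, and neither was the score gene Mylpf (0.25), whose values helped to choose the spots.

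Among fiber genes Actn3 was higher and Myh7 lower in the largest patches. Actn3, the Z disc crosslinker of fast fibers, stood at 89.1, 211, 163 and 118 CPM in the largest patches against 50.9, 62.4, 65.7 and 57.3 (log2 difference 1.38, adjusted p 5.27e-07 by edgeR's quasi-likelihood test). Of the 5 fast isoforms tested that were not score genes, 2 were called higher (Tnnc2 and Actn3) and 0 lower. Over all genes tested 3.01% were called higher and 3.46% lower. Of 9 slow and cardiac-shared isoforms, 3 were called lower (Myh7, Myl3 and Tnnc1) and 1 higher (Csrp3). Myh7 stood at 297, 393, 352 and 257 CPM against 866, 496, 729 and 509 (-0.83, adjusted p 6.4e-05), with the largest patches lower in every area.

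Among heavy chains the largest difference was that of Myh7b, a slow-type chain of specialised muscles. It stood at 0, 7.51, 8.51 and 8.65 CPM in the largest patches and at 12.7, 74.4, 92.0 and 65.7 elsewhere (log2 difference -3.18, SE 0.224, adjusted p 1.26e-09 by edgeR's quasi-likelihood test). Myl3, the ventricular and slow light chain, stood at 29.7, 1.02, 4.00 and 1.40 CPM against 25.5, 3.60, 87.6 and 14.3 (-3.63), higher in the largest patch in E14.5 replicate 1 and lower in the other areas. Over the 15 thick filament genes that were not score genes, 4 were called higher and 4 lower, and over 17 Z disc genes 4 higher and 0 lower. The shares over all genes tested were 3.01% higher and 3.46% lower. The Z disc genes called were Actn3, Pdlim3, Csrp3 and Ankrd1, and Ankrd1, a stress-responsive ankyrin repeat protein, was lower in the largest patch in E14.5 replicate 1 (74.3 against 153 CPM) and higher in the other areas, and DESeq2 did not call it (adjusted p 0.562).

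Calcium and fusion genes differed in part, beside shares over all genes tested of 3.01% called higher and 3.46% lower. Of 21 genes of excitation-contraction coupling, 7 were called higher in the largest patches and 2 lower (Ryr3 and Trim72), with Casq1 at 238, 305, 419 and 299.8 CPM against 216, 138, 169 and 191 (log2 difference 0.97). Of 11 junction genes 2 were called higher, Chrnb1 and Chrng. Of 8 fusion genes 2 were called lower, Mymx, the small fusion peptide (-0.63), and Jam3 (-0.42), and 0 higher. Of 15 regulators 2 were called higher, Mef2c (0.41) and Nfix (0.40). Of 15 energy genes 4 were called higher (Ckm, Cox8b, Eno3 and Hspb7) and 1 lower (Ampd1).

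Genes of other tissues stood beside these differences, in both directions. Of 5 bone markers 2 were called higher in the largest patches and 0 lower, though their sum was higher there in 2 areas only. For 5 cardiomyocyte markers it was 3 (Myl4, Nkx2-5 and Sln) and 0, for 3 smooth muscle markers 2 and 1, and for 5 macrophage markers 0 and 1. Over all genes tested 3.01% were called higher and 3.46% lower. Krt10, of differentiated keratinocytes, stood at 59.4, 91.7, 91.4 and 124 CPM in the largest patches against 38.2, 146, 767 and 690.5 elsewhere, and the summed keratinocyte and oral epithelium markers were 993 and 1245 CPM against 2817 and 1943 in the E15.5 areas, but 772 and 1688 against 700.1 and 927 in the E14.5 areas. Of the 7 markers of that list tested 1 was called higher in the largest patches, Krt13, and 1 lower. Cma1, a mast cell protease, stood at 14.9, 34.3, 40.4 and 50.2 CPM against 191, 72.0, 451 and 158 (log2 difference -2.17), and Tpsb2, another, was called too (-2.48). Cxcl14, a chemokine of skin and mesenchyme, was lower in the largest patches in every area (-1.95). Col14a1, a collagen of fascia and dermis, stood at 104, 64.5, 123 and 83.4 CPM against 140.0, 164, 320 and 191 (-1.26). Their part in the muscle gene differences was not tested.

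Connective tissue genes differed as well. Thbs4, a matrix protein of tendon and muscle attachments, stood at 639, 888, 424 and 928 CPM in the largest patches against 624, 328, 98.6 and 512 (log2 difference 1.21, adjusted p 1.05e-05 by edgeR's quasi-likelihood test), and Tnc, tenascin C, was also called higher (1.10). Fmod, a collagen-binding proteoglycan, was called lower (-1.10), with the largest patches lower in 2 areas (17.9 against 62.4 and 10.2 against 46.0 CPM) and higher in 2 (44.6 against 12.7 on 3 UMIs and 1 UMI, and 26.1 against 24.4). Prph, a filament protein of peripheral nerve, stood at 29.7, 52.1, 37.7 and 34.3 CPM against 0, 8.40, 13.1 and 5.89 (2.37, adjusted p 6.06e-06). Ntrk3, a neurotrophin receptor (1.32), and Negr1, a neuronal adhesion protein (1.44), were called higher too. By contrast 0 of 3 neuron markers and 0 of 4 Schwann cell markers tested were called, beside 6.47% of all genes tested.

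**Figure D3:**
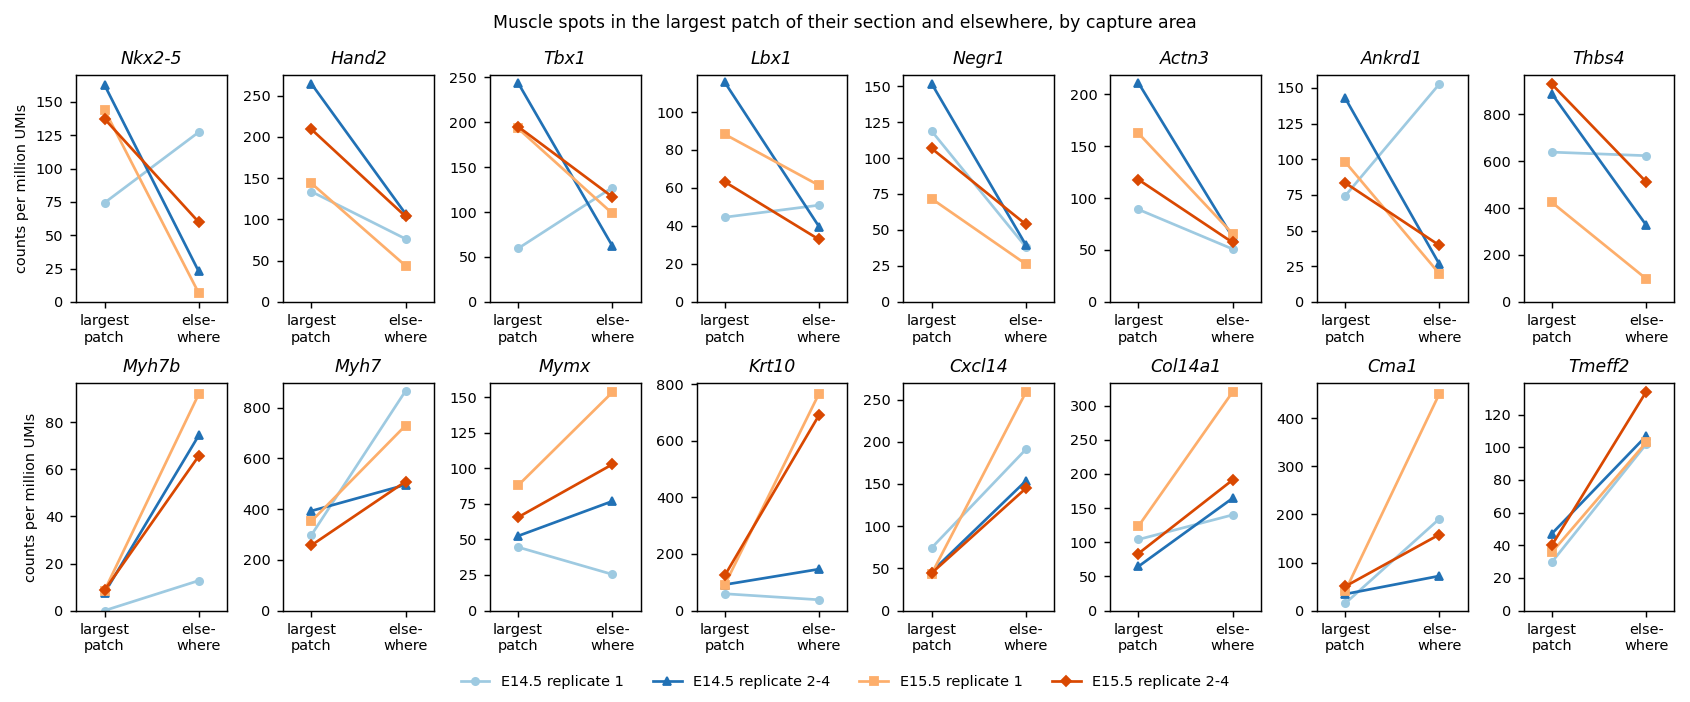
Levels of 16 genes in muscle spots of the largest patch of each section and elsewhere, in CPM, 1 line per capture area. Hand2 and Negr1 are lower elsewhere in every area and Myh7b and Myh7 higher, whereas Nkx2-5, Tbx1 and Lbx1 go the opposite way in E14.5 replicate 1.

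With distance from the muscle spots, most muscle gene lists declined and those of other tissues peaked at different steps. Levels were averaged over the 4 areas in muscle spots, in spots 1, 2 and 3 steps from the nearest one and in all spots further out. Fast isoforms summed to 14670, 5817, 3093, 1966 and 805 CPM over these 5 classes. The spots were chosen for genes of this list, so its decline is set by the rule. Other muscle genes that vary with the score genes may decline in part for the same reason. Energy genes, of which none was in the score, summed to 5187, 3096, 2382, 2045 and 1561 CPM, and at 1 step held 60.0% of the level in muscle spots. Fusion genes summed to 1554, 1048, 858, 777 and 791 CPM. Genes that pattern head muscle did not decline throughout, at 808, 593, 476, 504 and 556 CPM.

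Other cell types had their own profile. Schwann cell markers summed to 270 CPM in muscle spots and declined to 190, 137, 118 and 91.6. Tendon and connective tissue genes differed little over the first steps, at 3529, 3250, 3116 and 2910 CPM, and were lower further out (1635). Within that list Thbs4 followed the muscle, at 680, 314, 183, 142 and 43.4 CPM, whereas Tnmd, a marker of mature tendon, was lowest in muscle spots (7.47 CPM) and stood at 23.2, 33.6 and 32.5 at 1, 2 and 3 steps and at 9.45 beyond. Tnmd ranged from 3.96 to 87.6 CPM over the areas at 3 steps, so its position is shared by some areas only.

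Skeletal and surface tissues stood higher outside the muscle. Cartilage markers summed to 717, 2129, 3875 and 3715 CPM at 0 to 3 steps and bone markers to 492, 887, 2099 and 2517, with 3114 and 1070 beyond. Keratinocyte and oral epithelium markers summed to 1198 CPM in muscle spots, 2567 at 1 step and 968 beyond 3 steps, and the basal keratin Krt15 to 506, 1059 and 288. Neuron markers summed to 148, 222, 279, 464 and 2396 CPM. Endothelial markers were level, at 216 to 289 CPM over the 5 classes, and so were cell cycle genes at 1454 to 1601.

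**Figure D4:**
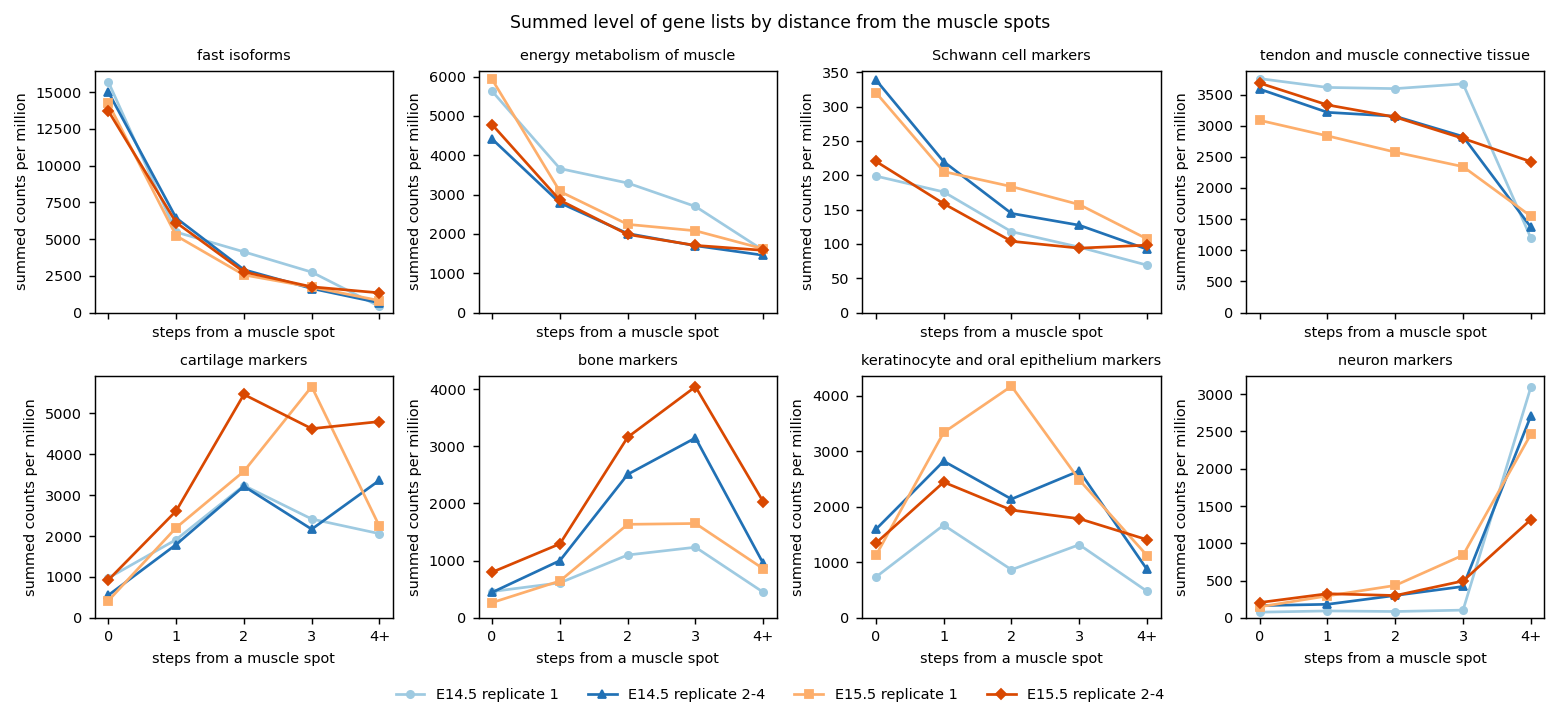
Summed levels of 8 gene lists in CPM against the number of array steps from the nearest muscle spot, 1 line per capture area. Fast isoform and energy genes decline from the muscle spots outward, bone markers are highest 3 steps away in all 4 areas, and neuron markers are highest beyond 3 steps.

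Between the stages, muscle spots differed in 1 gene past the threshold. The question was which genes change in muscle between E14.5 and E15.5, with UMIs of the muscle spots summed per area and tested with edgeR's quasi-likelihood test, 2 areas against 2, with Benjamini-Hochberg adjustment over 12662 genes and a threshold of 0.1. The gene was Arhgef25, a guanine nucleotide exchange factor (0.0079% of those tested). It stood at 164.5 and 165 CPM at E14.5 and 41.9 and 15.1 at E15.5, with no overlap between the stages, and fell by 2.59 on the log2 scale (SE 0.393, adjusted p 0.0987). In the other spots of the same areas it stood at 125, 157, 46.5 and 17.1 CPM (log2 difference -2.22, adjusted p 0.801), and the difference between both kinds of spots was not tested. The call was lost without E14.5 replicates 2-4 (adjusted p 0.312) or E15.5 replicates 2-4 (adjusted p 1). edgeR called 0 of 15464 genes for stage in the other spots (805 at an unadjusted p under 0.05), and in muscle spots 543 genes had an unadjusted p under 0.05. DESeq2 called 1 gene in muscle spots, Arhgef25. The count was 0 at an adjusted p under 0.05, without TMM scaling, with at least 10 UMIs in every area, with counts thinned to the smallest total, with 600 spots, with the same share of spots in every area and with spots chosen on 5 other muscle genes.

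The genes with the next smallest p did not pass. Crybb1, a lens crystallin, stood at 0, 18.7, 70.7 and 94.8 CPM (log2 difference 2.20, adjusted p 0.178 by edgeR's quasi-likelihood test), and in the other spots at 1.93, 813, 299 and 1118. Ckmt2, the mitochondrial creatine kinase of muscle, stood at 0, 2.69, 17.7 and 9.57 CPM (2.30, adjusted p 0.920). S100a9 (3.00), Camp (3.83) and Hoxa9 (4.30) had larger values on few UMIs, with S100a9, a neutrophil protein, at 27.4, 1.79, 29.8 and 15.7 CPM. Of the genes lower at E15.5, Tmem134 stood at 82.3, 74.0, 39.2 and 24.2 CPM (-1.31, adjusted p 0.920) and in the other spots at 64.0, 63.7, 33.9 and 21.3. Wdr89 (-1.67), Tmem229b (-1.06) and Msln (-2.02) followed.

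Read as counts of genes whose areas did not overlap between the stages, 23% of all genes tested had both E15.5 areas above both E14.5 areas and 10.2% below, around a median log2 difference of 0.03. Z disc genes had 8 of 19 above and 2 below (median 0.22), and 0 were called. Csrp3, a muscle LIM protein, stood at 432, 387, 674 and 498 CPM, and Fhl1, another LIM protein, at 206, 159, 295 and 219.7. Energy genes had 5 of 19 above and 0 below (0.28). Some of the Z disc and energy genes above rest on few UMIs in E14.5 replicate 1. Myoz3, Ankrd2 and Ckmt2 held 0 there, Ppargc1a 1, Xirp1 2, and Tcap and Ampd1 3. Junction genes had 5 of 11 below and 0 above (-0.30). Musk, the kinase that clusters the receptor, stood at 123, 134, 86.0 and 84.7 CPM (-0.66, unadjusted p 0.0237, adjusted p 0.920 by edgeR's quasi-likelihood test), and Chrna1, Chrnb1, Chrnd and Rapsn were the other members below.

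Progenitor and myosin genes showed both orders. Pax7 stood at 20.6, 23.0, 41.4 and 33.5 CPM (log2 difference 0.65, unadjusted p 0.0426, adjusted p 0.920 by edgeR's quasi-likelihood test), and Mymx at 34.3, 55.5, 92.5 and 70.9 (0.60). In E14.5 replicate 1 these values rest on 3 UMIs of Pax7 and 5 of Mymx. Of 21 thick filament genes 3 were above and 4 below, beside 23% above and 10.2% below over all genes. Myh8 stood at 2159, 2836, 3440 and 3003 CPM (0.33), and Myh7 at 603, 406, 379 and 293 (-0.56). Myh8, above, and Mylpf, below, are score genes, so their values helped to choose the spots and say little about stage. Of 6 imprinted genes 3 were below and 0 above (-0.16), beside the same shares over all genes, with Igf2 at 6588, 6536, 5614 and 5551 CPM. Tmod4, which caps thin filaments, stood at 6.86, 5.08, 19.5 and 10.5 CPM (1.45, unadjusted p 0.00818), with 1 UMI in E14.5 replicate 1.

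Some lists of other tissues had more genes above at E15.5 than the 23% of all genes, and others had 0. Of 6 neuron markers 5 had both E15.5 areas above both E14.5 areas (median log2 difference 0.42), of 5 macrophage markers 3 (0.48) and of 5 red blood cell markers 3 (0.60), and 0 of these were called. Of 7 cartilage, 5 bone and 2 forebrain markers tested 0 were above and 1, a bone marker, was below, and of 5 Schwann cell markers 1 was above. Neuron markers summed to 75.4, 164, 147 and 205 CPM and macrophage markers to 199, 124, 161 and 172, so the macrophage sum was highest in E14.5 replicate 1. The low counts of E14.5 replicate 1 touch each of these, since a gene at 6.86 CPM there rests on 1 UMI. Their part in the stage differences was not tested.

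**Figure D5:**
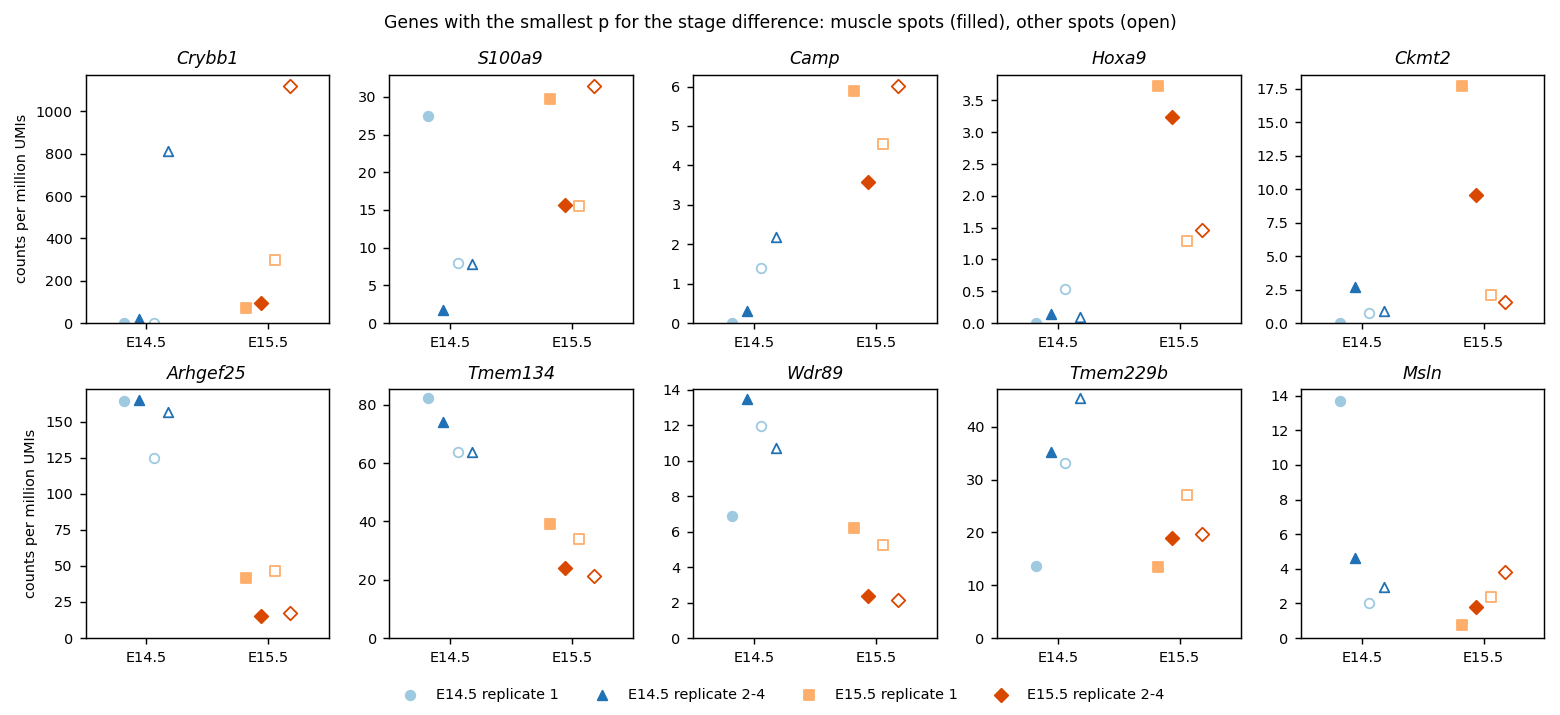
Levels of the 10 genes with the smallest p for the stage difference, 5 higher (top) and 5 lower (bottom) at E15.5, in CPM, by stage. Filled symbols are muscle spots and open symbols the other usable spots of the same area, and Arhgef25 stands at 164.5 and 165 CPM in the E14.5 areas and at 41.9 and 15.1 at E15.5 in muscle spots.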

How the data were processed

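Visium spRNA-seq for formalin-fixed, paraffin-embedded tissue was run on 4 capture areas, and the files the authors deposited hold UMI counts of 19465 genes in each spot, not normalized, together with spot positions. Per the file headers, Space Ranger 1.3.1 made the replicate 1 areas and 2.0.0 the others. The labels name mm10, and the probe set and annotation are not given in the sources used here. Total UMIs per area and intervals cover counting error only.

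Of 6357 tissue spots with counts, 456 with fewer than 2000 UMIs were left out. Sections were connected groups of at least 100 spots. Doublets were not called, since a spot can hold several cells. Counts of spots were summed per area. Levels against other spots are log2 ratios of CPM with 1 CPM added. Lists held 260 genes, 248 of them with a row. The stage and position comparisons used edgeR 4.0.16 in R 4.3.3 (quasi-likelihood test, TMM, filterByExpr, threshold 0.1, the false discovery rate the study states), with DESeq2 1.42.0 as an alternative. Shares were tested by exact permutation with SciPy 1.17.1. Figures used matplotlib 3.10.9. On simulated counts with 200 genes changed 4-fold, the stage comparison recovered 198 (14 false calls, 12653 genes tested) and the position comparison 200 (13 false calls, 9800 genes tested). The simulation gave every gene the same dispersion of 0.05, let areas differ only in their totals and changed only genes with many UMIs. It checks the code, and its recovery does not give the power of the tests on the real data.

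Genes named against other spots are the 20 with the highest lowest ratio over the areas, the 10 with the lowest highest ratio and the lists' members. For stage, genes past the threshold are named, and where fewer than 5 passed in a direction, the 5 with the smallest p. For position, chosen after its values were seen, the 15 largest changes per direction among called genes with the same sign in all 4 areas and at least 30 CPM are named, plus list members. Members, lists and tests were chosen with earlier results of these data known. Promoters are from RefSeq on GRCm38.p6. Of the 126 genes 4-fold higher in every area 94 (74.6%) had one. Motifs were not counted in that set. They were counted in the 20 named genes, a smaller set with 17 promoters. A few genes that the rules above name are not reported here. Alternatives covered the filter, scaling, test, set size, score genes, thinning, sections as samples, the replicate block and each area left out.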

Additional observations from a re-analysis of the deposited data

How the results depend on the processing

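The stage comparison called 1 gene, and its count depended on the settings. It was 0 without TMM scaling, with at least 10 UMIs in every area, at an adjusted p under 0.05, with counts thinned to the smallest total, with 600 spots, with the same share of spots in every area and with spots chosen on Ckm, Actn2, Tnnc2, Tnni2 and Myh3. It was 17 with at least 1 UMI in place of the filter, 18 with 150 spots, 19 with the largest patches only (an alternative chosen after seeing the data) and 222 with sections as samples, where sections of an area share a library. DESeq2 called 1. Leaving out each area in turn gave 1 to 8 calls: 7 without E14.5 replicate 1, 8 without E14.5 replicates 2-4, 5 without E15.5 replicate 1 and 1 without E15.5 replicates 2-4. Arhgef25 was lost without E14.5 replicates 2-4 or without E15.5 replicates 2-4, with log2 differences of -2.51 and -2.01. With a replicate block 8 genes were called. Deviations of areas with the same number from their stage means correlated at -0.03. With 2 areas per stage the deviations mirror each other, so this is a single value and cannot tell whether such areas share a batch. The number also marks the Space Ranger version and whether an area held 1 section or 3. S100a9 and Tmem229b reversed without E14.5 replicates 2-4, to -0.24 and 0.29, and over the 4 areas left out in turn ranged from -0.24 to 3.56 and from -1.21 to 0.29.

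The position comparison called 638 genes, 220 with DESeq2, of which 220 were among the 638, and 56 with no capture area block. It called 691 without TMM scaling, 864 with at least 1 UMI in place of the filter and 515 without the detached pieces and the smaller patch of E15.5 section B. Leaving out each area gave 259 to 815 calls: 815 without E14.5 replicate 1, 353 without E14.5 replicates 2-4, 309 without E15.5 replicate 1 and 259 without E15.5 replicates 2-4. DESeq2 did not call Nkx2-5 (adjusted p 0.448), Ankrd1 (0.562), Tbx1 (0.106) or Foxf2 (0.354). Among single genes named for position, 307 values kept their side of the threshold, 20 lost it and 0 reversed. Most of these genes were named because they were called with the same sign in all 4 areas. The absence of reversals thus follows largely from that choice and says little about how firm the differences are. Among those named for stage, 113 kept it, 23 crossed it to be called, 9 lost it and 2 reversed.

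The number of genes 4-fold higher in every area, 126, was 72 with 10 CPM added and 101 to 170 under the other alternatives. Energy genes at 1 step held 60.0% of their level in muscle spots, 70.2% with 150 spots and 52.1% with 600. The stage difference in share was 2.32 to 4.84 percentage points under alternative settings and 2.51 to 3.87 with an area left out, each time higher at E15.5. The number of patches was 13 from 3 spots and 7 from 10. The causes of these changes were not tested. Depth limits E14.5 replicate 1 most, where 1 UMI in muscle spots is 6.86 CPM.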

Other observations

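Further genes called in the position comparison follow, of which Lhx2 and Krt13 belong to lists read above. Lhx2, a homeobox factor of brain and hair follicle, stood at 0, 7.00, 10.8 and 10.5 CPM in the largest patches and at 12.7, 62.4, 8.76 and 37.9 elsewhere (log2 difference -1.98, adjusted p 0.000537 by edgeR's quasi-likelihood test). Irx5, a homeobox factor of facial mesenchyme, stood at 0, 15.7, 17.7 and 12.6 CPM against 25.5, 79.2, 65.7 and 33.7 (-1.89), lower in the largest patches in all 4 areas. Krt13, a keratin of oral lining epithelium, stood at 29.7, 104, 20.2 and 57.3 CPM against 38.2, 27.6, 4.38 and 35.4 (1.28).

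Gpi1, a glycolytic enzyme, was named after its values were seen, since it was called in several of the alternative stage comparisons. It stood at 384, 39.2, 543 and 666 CPM in muscle spots and at 319, 28.3, 356 and 488 in the other spots, so that E14.5 replicates 2-4 alone was low in both. Peg10, an imprinted gene, stood at 123, 68.5, 197 and 161 CPM in muscle spots (log2 difference 1.11, adjusted p 0.920 by edgeR's quasi-likelihood test).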
